A study of Mus musculus with 16 samples.

Results

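Egr1, Nfkbia, Zfp36 and Cebpd are rapidly induced regulators whose RNA was measured here in mouse fibroblasts after azacytidine, a drug resembling cytidine that inhibits DNA methylation. They were selected on their log ratios in both lines, for a rise in one line that the other did not show. The values below are thus the ones that picked them, and the groups and lines are described without a test. Each gene had 1 probe with a single gene symbol, which makes 4 genes of 9930 with such a probe and 4 probes of 20355 on the array, and all 4 passed the filter on missing values that left 12420 features. The platform annotation ties them to Entrez Gene 13653 (Egr1), 18035 (Nfkbia), 22695 (Zfp36) and 12609 (Cebpd).

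NIH3T3 is an established line of mouse embryo fibroblasts. It was studied after transfection with Erbb2, a receptor tyrosine kinase oncogene, and as the untransfected line, which served as the control experiment. RNA of cells given azacytidine was hybridised on each 2-colour array against RNA of cells of the same line without the drug, with 8 arrays of Erbb2 cells at 10 µM, 4 of Erbb2 cells at 5 µM and 4 of untransfected cells at 10 µM. The labels give neither the length of treatment nor whether a group holds RNA of different cultures, so the errors describe the spread between arrays. Nor do they describe the Erbb2 construct or say how many clones were transfected.

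An immediate early gene is switched on within a short time of a signal from transcription factors already in the cell. Egr1 is a zinc finger transcription factor that growth factors and stress induce through serum response elements. Nfkbia encodes the inhibitor that keeps NF-kappaB in the cytoplasm, and is itself transcribed by NF-kappaB, which closes a feedback loop. Zfp36 encodes a protein that binds AU-rich elements and speeds the decay of messenger RNAs such as those of cytokines. Cebpd is a basic leucine zipper transcription factor of the C/EBP family that responds to cytokines and takes part in growth arrest and fat cell differentiation.

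RefSeq held the start regions of Nfkbia and Zfp36, shown here because 1 belongs to the pair of genes that was high in untransfected cells and the other to the pair that was high in Erbb2 cells. The windows are the 250 bases before the annotated start in GRCm38.p6, chr12:55492648-55492897 for Nfkbia and chr7:28379229-28379478 for Zfp36, both on the minus strand and written 5′ to 3′. Capitals mark matches to the motifs searched.
Nfkbia: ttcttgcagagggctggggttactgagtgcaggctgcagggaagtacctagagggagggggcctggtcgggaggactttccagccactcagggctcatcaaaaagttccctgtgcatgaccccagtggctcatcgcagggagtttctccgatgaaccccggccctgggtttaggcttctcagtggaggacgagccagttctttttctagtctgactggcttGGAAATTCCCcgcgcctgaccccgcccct
Zfp36: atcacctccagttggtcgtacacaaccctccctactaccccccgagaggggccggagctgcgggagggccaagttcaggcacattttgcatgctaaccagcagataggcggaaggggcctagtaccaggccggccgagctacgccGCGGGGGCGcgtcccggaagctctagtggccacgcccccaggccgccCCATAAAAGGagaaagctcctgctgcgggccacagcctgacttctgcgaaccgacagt

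The motifs were searched on both strands, and no matches of different motifs overlapped. The Nfkbia window held 1 match to the kappaB consensus, on the opposite strand from 29 to 20 bases before the start. The Zfp36 window held 1 match to GCGNGGGCG, the form of site that Egr1 binds, from 105 to 97 bases before the start, and 1 match to the serum response element consensus from 58 to 49 bases before it. Neither held TTGCNNAA, TGACGTCA, TGANTCA or TATAAA. Of 32851 such windows of all genes, 7.25% held the kappaB consensus, 4.7% GCGNGGGCG and 1.47% the serum response element. The Zfp36 window had 18 CpG dinucleotides and the Nfkbia window 8, against a median of 6 over all windows. These matches are letters in a window and do not show binding.

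Each value is a log2 ratio, with RNA of drug-treated cells over that of untreated cells. The deposited values do not say which dye is the numerator. They were read as Cy5 over Cy3, and the sign was turned on arrays whose drug-treated sample was labelled with Cy3, which is a convention and not stated for these arrays: with Cy3 over Cy5 every sign in all 3 groups turns. Before that step the 4 genes had the following values. Egr1 was at 2.41 and 3.48 on the untransfected arrays with treated RNA in Cy5 and at -1.97 and -3.07 on those with it in Cy3. Nfkbia was at 2.51 and 2.34, then at -1.12 and -2.70. Zfp36 in Erbb2 cells at 10 µM ran from 0.72 to 1.47 on the 4 arrays with treated RNA in Cy5 and from -1.24 to -0.58 on the 4 with it in Cy3, and Cebpd from 0.92 to 1.44 and from -1.40 to -0.88. Since the genes were picked on ratios that had been turned, these sets had to change sign with the dye, and they do not show which dye was the numerator. On the untransfected arrays the labels name 1 dye for both channels, and the dye of channel 1 was taken. Should the drug-treated sample have carried the opposite dye, all values of untransfected cells change sign.

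**Figure D1:**
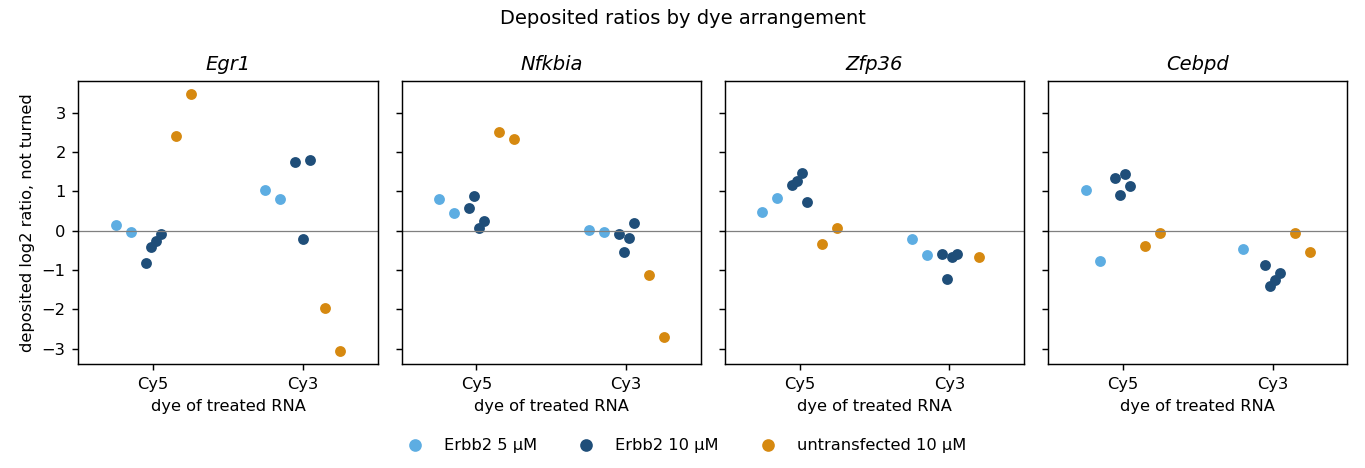
Deposited log2 ratio (vertical axis, sign not turned) of each gene against the dye of the treated RNA (horizontal axis), with 1 point per array coloured by group. Egr1 and Nfkbia in untransfected cells and Zfp36 and Cebpd in Erbb2 cells at 10 µM lie above 0 where the treated RNA was in Cy5 and below 0 where it was in Cy3.

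Egr1 was several-fold higher with the drug in untransfected cells and below 0 on most arrays of Erbb2 cells. In untransfected cells at 10 µM it was at 2.41, 3.48, 1.97 and 3.07 on arrays 1 to 4, above 0 on all of them, with a fitted value of 2.73 ± 0.31 (standard error from limma here and below, n = 4), or 6.64-fold. In Erbb2 cells at 10 µM it ran from -1.79 to 0.22 with a median of -0.40 on 7 arrays, array 6 having no value, and lay below 0 on 6 of them. The fitted value was -0.75 ± 0.23. In Erbb2 cells at 5 µM Egr1 was at 0.14, -0.04, -1.03 and -0.81 on arrays 1 to 4, with a fitted value of -0.44 ± 0.31. The lowest untransfected array thus lay above the highest array of either Erbb2 group, while the ranges of the Erbb2 groups overlapped, with arrays 5, 7 and 8 at 10 µM lying outside the range of the 5 µM arrays. The difference between the lines at 10 µM, Erbb2 minus untransfected, was -3.48 ± 0.39, or 11.2-fold in size.

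Nfkbia was high on the same 4 arrays. In untransfected cells it was at 2.51, 2.34, 1.12 and 2.70 on arrays 1 to 4, with a fitted value of 2.17 ± 0.22 (n = 4), or 4.49-fold, array 3 being the low one. In Erbb2 cells at 10 µM it ran from -0.19 to 0.87 with a median of 0.21 on 8 arrays, and the fitted value was 0.30 ± 0.16. At 5 µM it was at 0.82, 0.46, -0.01 and 0.03, with a fitted value of 0.32 ± 0.22 (n = 4). Nfkbia lay above 0 on 7 of 8 and 3 of 4 arrays of the Erbb2 groups, whose ranges overlapped, and all of these values stayed under every untransfected array. The difference between the lines at 10 µM was -1.87 ± 0.28. For 68 of the 12420 features, or 0.548%, every array of both Erbb2 groups lay under every untransfected array as they did for Egr1 and Nfkbia, and for 0.902% every Erbb2 array at 10 µM did. Since the pair was picked for this difference, nothing is read from that share.

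Zfp36, the messenger RNA decay factor, was highest in Erbb2 cells at 10 µM, where it ran from 0.58 to 1.47 with a median of 0.94 and lay above 0 on all 8 arrays. Its fitted value there was 0.96 ± 0.15, or 1.95-fold. At 5 µM it was at 0.48, 0.82, 0.22 and 0.63 on arrays 1 to 4, with a fitted value of 0.54 ± 0.21. In untransfected cells it was at -0.35, 0.06 and 0.68 on arrays 1, 2 and 4, array 3 having no value, with a fitted value of 0.11 ± 0.25 (n = 3). Array 4 of the untransfected cells lay inside the range of Erbb2 cells at 10 µM, so the groups overlapped. The difference between the lines at 10 µM was 0.85 ± 0.29. The untransfected value rested on single arrays and was 0.37 without array 1 and -0.31 without array 4.

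Cebpd, the C/EBP family factor, was high on all 8 arrays of Erbb2 cells at 10 µM. It ran from 0.88 to 1.44 there with a median of 1.20 (SD 0.21, n = 8), and the fitted value was 1.18 ± 0.17, or 2.27-fold. At 5 µM it was at 1.03, -0.78 and 0.46 on arrays 1, 2 and 4, array 3 having no value, with a fitted value of 0.27 ± 0.28 (n = 3) that was -0.16 without array 1 and 0.75 without array 2. In untransfected cells it was at -0.39, -0.06, 0.06 and 0.54 on arrays 1 to 4, on both sides of 0, with a fitted value of 0.04 ± 0.24. Every Erbb2 array at 10 µM lay above every untransfected array, which held for 2.09% of features, and the difference between the lines was 1.14 ± 0.30. The 5 µM arrays reached from below the lowest untransfected array into the range of the 10 µM arrays.

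**Figure D2:**
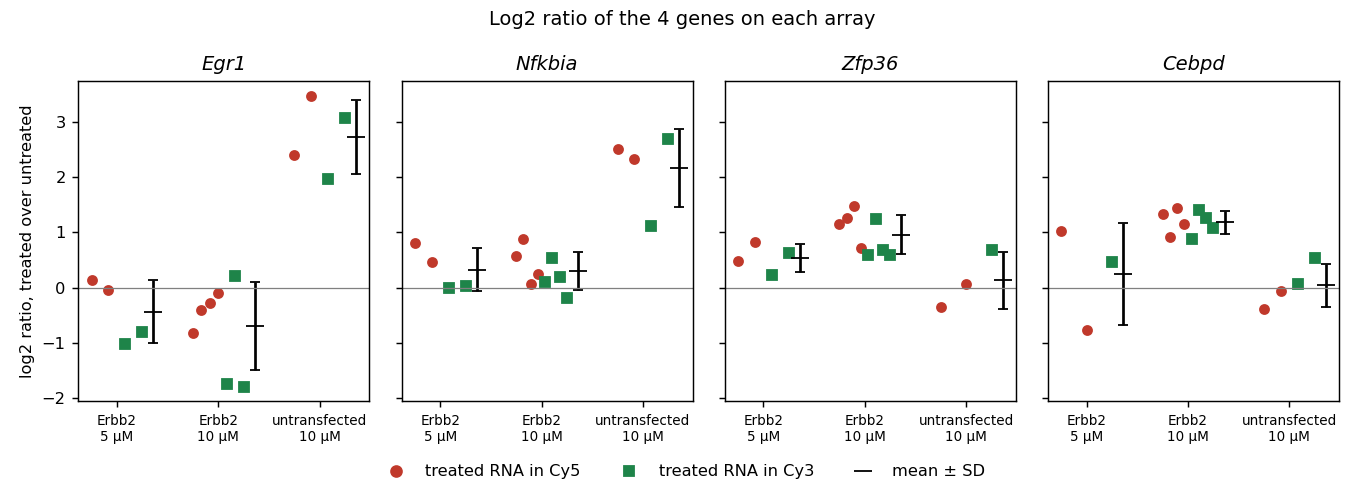
Log2 ratio of treated over untreated RNA (vertical axis) of Egr1, Nfkbia, Zfp36 and Cebpd on each array of the 3 groups, with circles for treated RNA in Cy5, squares for Cy3 and black bars for the mean ± SD. Egr1 and Nfkbia lie between 1.12 and 3.48 on the untransfected arrays, and Zfp36 and Cebpd between 0.58 and 1.47 on the Erbb2 arrays at 10 µM.

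The share of features above 0 on every array with a value was 1.31% in Erbb2 cells at 10 µM, as for Zfp36 and Cebpd, and 8.3% at 5 µM, as for Zfp36. In untransfected cells it was 12.2%, as for Egr1 and Nfkbia. With an adjusted p under 0.05 from limma, 0.403% of features were higher and 0.862% lower in Erbb2 cells at 10 µM. At 5 µM these shares were 0.177% and 0.0322%, and in untransfected cells 0.596% and 2.13%. At an unadjusted p under 0.05, 10.8%, 6.33% and 11.5% of features passed in the 3 groups in this order, and 9.72% between the lines.

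**Figure D3:**
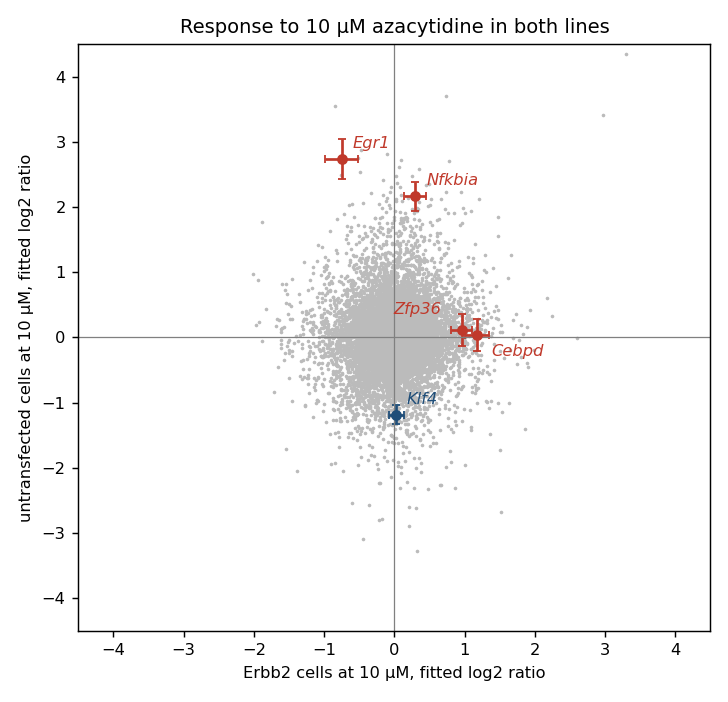
Fitted log2 ratio in Erbb2 cells at 10 µM (horizontal axis) against that in untransfected cells at 10 µM (vertical axis) for 12420 features in grey, with Egr1, Nfkbia, Zfp36 and Cebpd in red and Klf4 in blue, bars showing the standard error. Egr1 and Nfkbia lie high on the vertical axis, Zfp36 and Cebpd to the right near 0 on it, and Klf4 below 0 on it.

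Both doses belong to the groups on which the genes were picked, so the dose difference is given as a description. In Erbb2 cells, 10 minus 5 µM came to 0.91 ± 0.33 for Cebpd and to 0.42 ± 0.26 for Zfp36. For Egr1 it was -0.31 ± 0.39 and for Nfkbia -0.03 ± 0.28. Of all features 0% passed at an adjusted p under 0.05 from limma, and 4.34% at an unadjusted p under 0.05. The Cebpd difference moved with single arrays at 5 µM and was 0.43 without array 2, where the gene was at -0.78, and 1.34 without array 1, where it was at 1.03. The Egr1 difference was -0.58 without array 7 at 10 µM and -0.18 without array 8.

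The ratios were turned by the dye of the treated RNA before the genes were picked, so the dye differences are given as a description. Egr1 was higher by 0.70 ± 0.32 with treated RNA in Cy5 than in Cy3. In Erbb2 cells at 10 µM its low values of -1.75 and -1.79 came from arrays 5 and 8, both with treated RNA in Cy3. The dye difference was 0.43 ± 0.22 for Nfkbia, 0.12 ± 0.22 for Zfp36 and -0.17 ± 0.25 for Cebpd. Single arrays moved these differences: for Nfkbia it was 0.27 without array 3 of untransfected cells, for Zfp36 it ran from 0.043 to 0.33 and for Cebpd from -0.30 to -0.038 when 1 array was left out. The dye term passed for 0% of features at an adjusted p under 0.05 from limma, with 8.05% at an unadjusted p under 0.05.

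Array by array, the 4 genes formed the pairs that their choice set. The root mean square difference between the log2 ratios of Zfp36 and Cebpd was 0.53 over the 14 arrays with both values, and between Egr1 and Nfkbia it was 0.98 over 15. The pairs across ran from 1.22 for Nfkbia and Zfp36 to 2.08 for Egr1 and Cebpd. By the same measure the genes most like Egr1 were Mdm2, the ubiquitin ligase of p53 (0.82), Nfkbia (0.98), the transporter family gene Slc15a5 (1.05) and Aco1, the cytosolic aconitase that binds iron-responsive elements (1.07), with a median of 1.77 over 6801 genes. Mdm2 was at -0.43 in Erbb2 cells at 10 µM, at -0.27 at 5 µM and at 1.70 in untransfected cells. Nearest to Nfkbia were Slc15a5 (0.49), Ift27 (0.63), the condensin subunit gene Ncapg (0.66) and Ttll10 (0.75), with a median of 1.41 over 7365 genes.

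Zfp36 was nearest to Rin2, a regulator of the Rab5 GTPase (0.28), to the proteoglycan gene Agrn (0.39), to Gpnmb (0.41) and to the calcium-binding protein gene S100a11 (0.45), with a median of 1.07 over 6552 genes. Cebpd was nearest to Rin2 (0.44), Zfp36 (0.53), S100a11 (0.55) and Gpnmb (0.55), with a median of 1.18 over 6632 genes. Rin2, Gpnmb and S100a11 stood among the 4 nearest of both. Rin2 was at 0.82 in Erbb2 cells at 10 µM, at 0.50 at 5 µM and at 0.02 in untransfected cells. These are descriptions over 14 to 16 arrays, of which those of 1 group may share RNA.

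The other immediate early genes measured were counted with the same model. Of 65 listed besides the 4, 33 passed the filter, 13 had a probe with too few values and 19 had no probe. In limma 0 of the 33 were higher at an adjusted p under 0.05 in any group, and 2 were lower in untransfected cells, where 2.73% of all features passed in either direction. If the treated RNA of untransfected cells was in the other dye, 2 were higher there and 0 lower. At an unadjusted p under 0.05, 1 was higher and 3 lower in Erbb2 cells at 10 µM, 1 higher and 0 lower at 5 µM, and 4 higher and 4 lower in untransfected cells. The shares of all features at that threshold were 10.8%, 6.33% and 11.5% in this order. The median of the 33 was -0.05 at 10 µM and 0.01 at 5 µM in Erbb2 cells and 0.10 in untransfected cells, against -0.00, -0.02 and 0.03 over all features.

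Klf4, a Krüppel-like transcription factor, fell in untransfected cells, at -1.60, -1.31, -0.61 and -1.21 on arrays 1 to 4, with a fitted value of -1.18 ± 0.15 and an adjusted p of 0.000396 from limma. In Erbb2 cells at 10 µM Klf4 ran from -0.34 to 0.34 and was at 0.03 ± 0.10. All of these values lay above every untransfected value, which held for 2.09% of features. The lines differed by 1.21 ± 0.18 with an adjusted p of 0.00385 from limma, where 0.797% of all features passed in either direction. Btg1, an antiproliferative gene, fell in untransfected cells by 0.89 ± 0.18, lower on 4 of 4 arrays as 13.3% of features were, with an adjusted p of 0.0141 from limma. Btg1 did not pass without array 1, 2 or 4 of the untransfected cells, and neither Klf4 nor Btg1 passed as lower when that group was fitted on its own arrays.

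**Figure D4:**
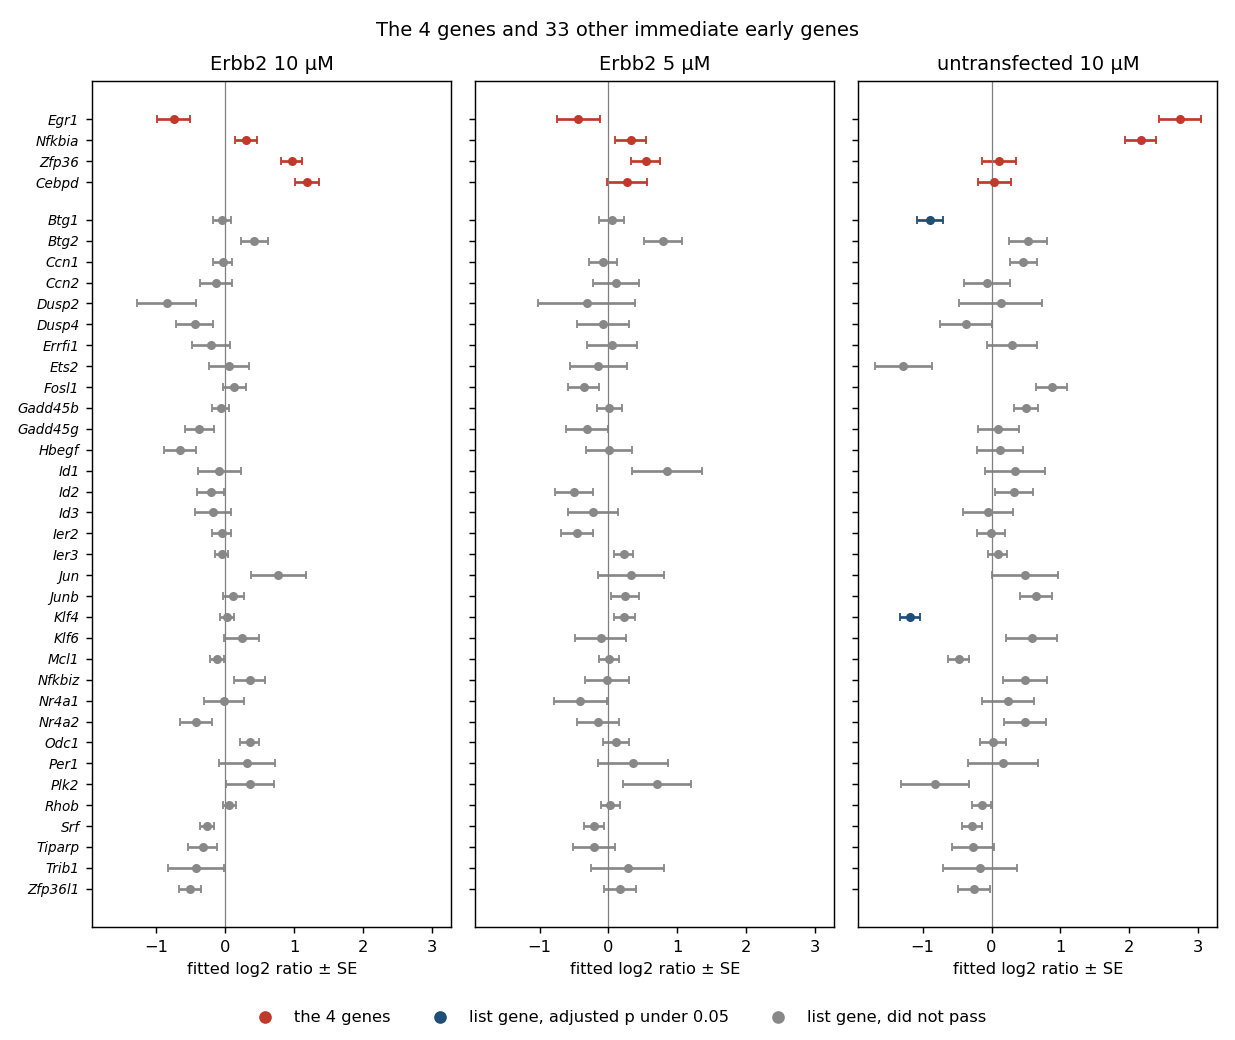
Fitted log2 ratio ± standard error (horizontal axis) of Egr1, Nfkbia, Zfp36 and Cebpd (red) and of 33 other immediate early genes in the 3 groups, with blue for an adjusted p under 0.05 and grey for the rest. The 33 genes have medians from -0.05 to 0.10, and Klf4 and Btg1 are the blue ones, both below 0 in untransfected cells.

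The AP-1 subunit genes Jun and Junb did not pass in any group. Junb was at 0.65 ± 0.24 in untransfected cells, above 0 on the 3 arrays with a value, and at 0.12 ± 0.15 in Erbb2 cells at 10 µM. Jun was at 0.48 ± 0.48 and 0.77 ± 0.40. Its other probes did not pass the filter, with means of -0.82 and -0.82 in untransfected cells and of -1.13 and 1.01 in Erbb2 cells at 10 µM. Fosl1, a further AP-1 subunit gene, named after its values were seen, was at 0.87 ± 0.23 in untransfected cells, from 0.49 to 1.59 on 4 arrays, with an adjusted p of 0.0588 from limma. Fosl1 passed as higher there under 6 of the alternatives, with an adjusted p from limma of 0.0214 with a value required on every array, 0.0408 with arrays centred and scaled, 0.0409 with quantile normalization and 0.0274 with array weights. It was 0.0434 without array 2 of Erbb2 cells at 5 µM and 0.0423 without array 6 at 10 µM. Under the other settings Fosl1 did not pass. Among these were leaving out any 1 untransfected array and fitting that group on its own arrays. Other early genes passed as lower in untransfected cells under alternatives. Mcl1 was at -0.48 with a value required on every array (adjusted p of 0.0402 from limma). With each probe kept, only 1 of the 2 probes of Mcl1 passed, at -0.88 (adjusted p of 0.00186 from limma). In the main fit the average of both was at -0.48 ± 0.15, with an adjusted p of 0.140 from limma. Ets2 was at -1.28 without array 3 of Erbb2 cells at 5 µM (adjusted p of 0.0155 from limma). The probe of Fos had values on 4 of 8, 3 of 4 and 3 of 4 arrays of Erbb2 cells at 10 µM, Erbb2 cells given 5 µM and the untransfected line, running from -5.86 to 3.09 over the groups. Fos, Dusp1, a MAP kinase phosphatase gene, Myc and Atf3 were left out for missing values.

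Around Nfkbia, 0 of 19 measured genes of the NF-kappaB pathway passed in a group or between lines or doses, with 2 higher and 1 lower at an unadjusted p under 0.05 in untransfected cells and 2 and 0 in Erbb2 cells at 10 µM. Of all features 11.5% and 10.8% passed at that unadjusted threshold, and 2.73% in untransfected cells at the adjusted one. Their median was 0.18 in untransfected cells, 0.05 in Erbb2 cells at 10 µM and -0.02 at 5 µM. Rela, the transactivating NF-kappaB subunit, was at -0.05 ± 0.43 in untransfected cells and at 0.39 ± 0.31 in Erbb2 cells at 10 µM. Ier3, an early gene that NF-kappaB induces, was at 0.09 ± 0.14 and -0.05 ± 0.10.

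Around Egr1, 0 of 8 measured genes of its pathway passed in limma, with medians of -0.22 in untransfected cells and -0.12 in Erbb2 cells at 10 µM, and 0 higher and 2 lower, then 0 and 1, at an unadjusted p under 0.05. Over all features 2.73% passed in untransfected cells. At the unadjusted threshold 11.5% passed there and 10.8% in Erbb2 cells at 10 µM. The lists here are short for such shares, so nothing is read from their counts. Of the Zfp36 family and the decay of AU-rich messages, 0 of 14 passed, with medians of 0.10 and -0.01, and 1 higher and 0 lower, then 0 and 1, at an unadjusted p. Zfp36l1, the relative of Zfp36 on the array, was at -0.51 ± 0.16 in Erbb2 cells at 10 µM, with an adjusted p of 0.211 from limma. Without array 6, where Zfp36l1 was at 0.62, it fell by 0.66 ± 0.14 with an adjusted p of 0.0353 from limma. Its probes differed at 5 µM, with means of 0.61 and -0.27. Of the C/EBP family and its partners, 0 of 8 passed, with medians of -0.19 and 0.22, and 0 higher and 2 lower, then 0 and 0, at an unadjusted p. In untransfected cells Ddit3 passed as lower with quantile normalization and without array 3 of Erbb2 cells at 10 µM (adjusted p of 0.0473 and 0.0361 from limma). Hp passed as higher there without array 3 of untransfected cells (adjusted p of 0.0112 from limma).

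A 2-colour ratio gives no level in the cells, so fibroblast identity could be followed only as a change. Of 8 measured fibroblast markers, 3 were lower in untransfected cells, on the arrays where Egr1 and Nfkbia were high and 2.13% of all features were lower, and 0 passed in Erbb2 cells, where 1 was lower at an unadjusted p under 0.05 at 10 µM and 1 higher and 1 lower at 5 µM in limma. Fibronectin, Fn1, was at -1.63 ± 0.20, the collagen chain Col1a2 at -0.79 ± 0.19 and vimentin, Vim, at -0.55 ± 0.14, with adjusted p from limma of 0.000396, 0.0403 and 0.0493. These 3 calls were not followed under other processing settings, and with the other dye for untransfected cells their signs turn. The other measured markers did not pass there. Thy1 was at 0.51 ± 0.41 and Pdgfrb at 0.01 ± 0.86 in untransfected cells. Col1a1 was at -0.26 ± 0.21, Col3a1 at -0.31 ± 0.32 and Pdgfra at -0.50 ± 0.43. Vim was also below 0 on every Erbb2 array, at -0.61 ± 0.14 at 5 µM and -0.28 ± 0.10 at 10 µM, with adjusted p from limma of 0.151 and 0.289. The markers had a median of -0.41 in untransfected cells, 0.11 in Erbb2 cells at 10 µM and 0.15 at 5 µM. Of 4 measured markers of blood and immune cells 0 passed in any group, with 0 at an unadjusted p in limma and medians from -0.08 to 0.23. The part of these markers in the values of the 4 genes was not tested.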

How the data were processed

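RNA was measured on 2-colour cDNA arrays, and the authors deposited log2 ratios of both channels for 16 arrays, centred near 0 (array medians from -0.03 to 0.05). The base was inferred. On each array 1 repeated extreme value lay 16.61 or 15.61 above another frequent value, within 0.001, which is log2 of 100000 or 50000. These values, 1755 of 325680 cells, were taken for placeholders and removed, and 38737 further cells were empty. The other frequent value, on 59 to 233 probes of an array, was kept as a ratio, though it too may not be a measured one. Each array kept 16153 to 18507 ratios. The normalization method and the direction were not given in the sources used here, and signal over background is unknown.

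Ratios of arrays with treated RNA in Cy3 were turned. Probes needed values on 3 of 4 or 6 of 8 arrays per group and both dye arrangements. Probes of 1 symbol were averaged by gene, and 13994 of 14030 probes with 1 symbol matched RefSeq by Entrez Gene ID, with 0 symbols changed. All arrays entered 1 model in limma 3.58.1 (R 4.3.3), with a coefficient per group and a dye term, eBayes, two-sided tests and Benjamini-Hochberg adjustment over 12420 features at 0.05. The model was also run on simulated data with independent normal errors and no dye effect. That run could not cover shared RNA, dye effects or outlying arrays.

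The 4 genes and all lists (immediate early genes, Egr1 pathway, NF-kappaB pathway, Zfp36 family and AU-rich decay, C/EBP family, fibroblast markers, blood and immune markers) were chosen with earlier results of these data known. Named genes were the 4, list genes past the threshold, a fixed set of relatives, and per gene the 4 most alike by root mean square difference over at least 14 shared arrays.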

Additional observations from a re-analysis of the deposited data

Results flagged for a closer look

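Klf4 differed between the lines at 10 µM by 1.21 on the log2 scale, Erbb2 minus untransfected, in the test of the difference itself. Fn1 differed by 1.68 in the same test, with an adjusted p of 0.00361 from limma. If the treated RNA of the untransfected cells was in the other dye, the Klf4 difference is -1.16. Fibroblast markers were not followed under the alternatives, so no such value is given for Fn1.

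In Erbb2 cells at 10 µM, Zfp36l1 was at 0.62 on array 6 with the next array at -0.31, and Col1a2 was at 1.08 on array 3 with the next at 0.37. Each stood far from the other arrays of its group, and arrays 6 and 3 are among the 3 with the widest spread of ratios. Chance marks about 1 in 20 groups in this way, and 42 groups were examined.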

How the results depend on the processing

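With no array turned for its dye, Egr1 was at 0.21 (10 µM) and 0.48 (5 µM) in Erbb2 cells and at 0.21 in untransfected cells, Nfkbia at 0.26 in untransfected cells, Zfp36 at 0.19, 0.11 and -0.56 in the same order as Egr1, and Cebpd at 0.027 in Erbb2 cells at 10 µM. The differences between lines were then -0.0010 for Egr1, -0.12 for Nfkbia and 0.29 for Cebpd, and 0 pathway genes passed in untransfected cells or between lines. The dye term took 1.44 for Zfp36 and 1.42 for Cebpd. With the treated RNA of untransfected cells in the other dye, Egr1 there was at -2.73 and Nfkbia at -2.17, the differences between lines were 1.98 and 2.46, and 2 pathway genes differed between lines in place of 1.

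Of the listed early and pathway genes, markers left out, 2 passed in untransfected cells. The count was 0 on that group's own arrays and 4 with a value required on every array, where Egr1, Zfp36 and Cebpd were lost, or with quantile normalization. Between lines it was 2 under these last settings and with each probe kept, and 0 with the replicate block, where Klf4 was lost. That block, fitted for the differences between doses and lines, also gave 0.12 for the Nfkbia dose difference and 0.80 for the Cebpd difference between lines, and changed no other call among them. Same-numbered arrays had residual correlations from -0.0895 to 0.145, so the numbers were not taken to pair the arrays. Leaving out 1 array in turn gave the Nfkbia dose difference from -0.096 to 0.076, and 0 to 1 pathway genes in Erbb2 cells at 10 µM and 1 to 3 in untransfected cells. Of 332 values under the other alternatives, 303 kept their direction and side of the threshold, moved by less than 1 SD or, for counts of genes, changed little. Some could not change, such as values of Erbb2 cells when only the untransfected dye was exchanged. That share is thus no measure of robustness. Precision is limited by the number of arrays and by their weak agreement, and signal over background is unknown. Within a group, deposited ratios of arrays with the same dye arrangement had mean Pearson correlations of 0.026, 0.052 and 0.11. This is the order Erbb2 cells at 10 µM, at 5 µM and untransfected cells. With opposite arrangements they were 0.0039, -0.0027 and -0.053. Mean Spearman correlations were 0.061, 0.115 and 0.18, then -0.0031, -0.014 and -0.13.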
